A study of Homo sapiens with 4 samples.

Results

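Genes of the tricarboxylic acid cycle and its cytosolic side branches were followed in 2 human colorectal cancer lines deprived of glucose. They were taken by name: the probes whose annotated symbol was CS, IDH3A, OGDH, SUCLG1, FH, MDH1, MDH2, ME1 or IDH1. Of these 9 genes, 8 were measured, among 17605 named genes on the array, and FH, the fumarate hydratase gene, was not analysed here. SUCLG1 had 2 probes and the other genes 1 each, so 9 probes carry the results. DLD1 and HT29 are established colorectal adenocarcinoma lines. Each was kept for 24 h with glutamine (2 mM) and no glucose, or with the same glutamine plus glucose (10 mM), going by the titles for the combination and by the growth protocol for the amounts. Dialysed bovine serum (10%) was present throughout. The 4 resulting RNAs, labelled with Cy5, went onto 1 array each, and the labels do not say whether cultures were repeated. A difference within a line therefore has no replicate check, and the 2 lines stand in as repeats of glucose withdrawal.

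The cycle oxidises acetyl-CoA in the mitochondrial matrix and passes the electrons to the respiratory chain. Cells that use glutamine feed carbon into it at alpha-ketoglutarate, and part of that carbon leaves as malate or citrate. In the cytosol, malic enzyme and NADP-dependent isocitrate dehydrogenase draw on these products and make NADPH, which cells use for biosynthesis and for keeping glutathione and thioredoxin reduced.

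Between 85.5% and 87.0% of the 24460 probes were brighter than the 95th percentile of the blank spots of their array, and all 9 probes of these genes were so on all 4 arrays. Values are log2 intensity after background correction and quantile normalization, and a change is the value without glucose minus the value with glucose. Local background was left out of the main values, since on the log scale it tracked the spots it surrounds (r between 0.904 and 0.966 over probes). Of 9 epithelial marker genes, 8 were above background in DLD1 with glucose and 9 on the other 3 arrays. Most probes of the array pass this limit, so the counts alone do not establish epithelial identity. EPCAM, an epithelial adhesion gene, had spot intensities of 6861 and 9710 in DLD1 without and with glucose, and of 8538 and 11612 in HT29. The keratin genes KRT18 (18834 to 31062) and KRT19 (2373 to 4765) were bright on all arrays too. CDX2, an intestinal transcription factor gene, was dim in HT29, at 41.9 without and 41.0 with glucose, against 209 and 405 in DLD1. CEACAM5 (35.5 to 47.4) and CDX1 (47.5 to 56.5) were dim in both lines. Of 7 fibroblast markers 3 or 4 were above background, and the collagen genes COL1A1, COL1A2 and COL3A1 were above background on no array. The brightest fibroblast marker was DCN, at 136 without and 152 with glucose in DLD1, and 133 without and 159 with glucose in HT29. Of 5 leukocyte markers 4 were above background on each array, and PTPRC, the common leukocyte antigen gene, was above it on none. Their summed intensity was 7124 and 20992 in HT29 without and with glucose, nearly all from LYZ (6866 and 20771), against 248 and 238 in DLD1. Of 3 endothelial markers 2 or 3 were above background, with no spot brighter than 70.5. The leukocyte sum thus differed between the lines, and between the media in HT29. Over the 4 arrays the fibroblast sums were 361 to 406, the endothelial sums 135 to 149 and the epithelial sums 30474 to 48808. The part of these sums in the results was not tested. On 1 array for each culture, fewer cells of a kind and less RNA per cell cannot be told apart.

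Among the mitochondrial enzymes of the cycle, SUCLG1 was lower without glucose in both lines, whereas CS, IDH3A, OGDH and MDH2 changed by less than 1.5-fold in each. SUCLG1 encodes the alpha subunit of succinyl-CoA ligase, the step of the cycle that makes a nucleoside triphosphate directly. Its normalized log2 intensity was 9.86 without and 10.60 with glucose in DLD1, and 9.54 without and 10.61 with glucose in HT29. Both arrays without glucose thus lay below both arrays with glucose. The change in DLD1 was -0.74 and that in HT29 was -1.08, or 0.597 and 0.474 of the level with glucose. Their mean was -0.91 ± 0.24 (SD, n = 2 lines). Limma with the line as a block gave an adjusted p of 0.312.

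The 2 SUCLG1 probes, which are separate spots, gave similar values. The probe AHsV10003242 had spot intensities of 630 without and 1407 with glucose in DLD1, and of 622 without and 1869 with glucose in HT29. The probe H300007508 had 826 without and 1732 with glucose in DLD1, and 783 without and 2154 with glucose in HT29. Their normalized changes were -0.81 and -0.67 in DLD1 and -1.14 and -1.02 in HT29, so each probe was lower by more than 1.5-fold in each line. Under every alternative processing SUCLG1 stayed lower by more than 1.5-fold, between -1.45 and -0.67 in DLD1 and between -1.40 and -0.88 in HT29. The alternatives that can move a gene's own value are the local background, the offset, the scaling and the deposited values, and for SUCLG1 the choice of probe.

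CS encodes citrate synthase, which joins acetyl-CoA to oxaloacetate at the entry to the cycle. Its log2 intensity was 7.73 without and 7.75 with glucose in DLD1, and 7.22 without and 7.47 with glucose in HT29, changes of -0.01 and -0.25. The DLD1 change was 0.80 with the local background subtracted. IDH3A encodes the catalytic subunit of the NAD-dependent isocitrate dehydrogenase. It stood at 9.79 without and 10.23 with glucose in DLD1 and at 9.91 without and 10.00 with glucose in HT29. Its changes were -0.44 and -0.09, and the arrays without glucose lay below those with glucose. In DLD1 it went past 1.5-fold under median scaling (-0.76) and in the deposited table (-0.69). In HT29 it was 0.20 with the local background subtracted.

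OGDH encodes the decarboxylating subunit of the alpha-ketoglutarate dehydrogenase complex, where carbon from glutamine enters the oxidative part of the cycle. Its probe was dim, with spot intensities of 99.5 without and 118 with glucose in DLD1 and 111 without and 122 with glucose in HT29, against blank medians of 34.4 to 35.6. Its log2 changes were -0.13 in DLD1 and 0.12 in HT29, the second of which was -0.02 with median scaling, and the media overlapped. MDH2 encodes the mitochondrial malate dehydrogenase, which regenerates oxaloacetate. Its log2 intensity was 11.36 without and 11.37 with glucose in DLD1, and 11.36 without and 11.56 with glucose in HT29. The changes were -0.01 and -0.19. With the local background subtracted they became 4.09 and 1.44. The local background at the MDH2 spot was 33.3% of the spot signal without and 97.9% with glucose in DLD1, and 69.3% without and 93.4% with glucose in HT29.

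**Figure D1:**
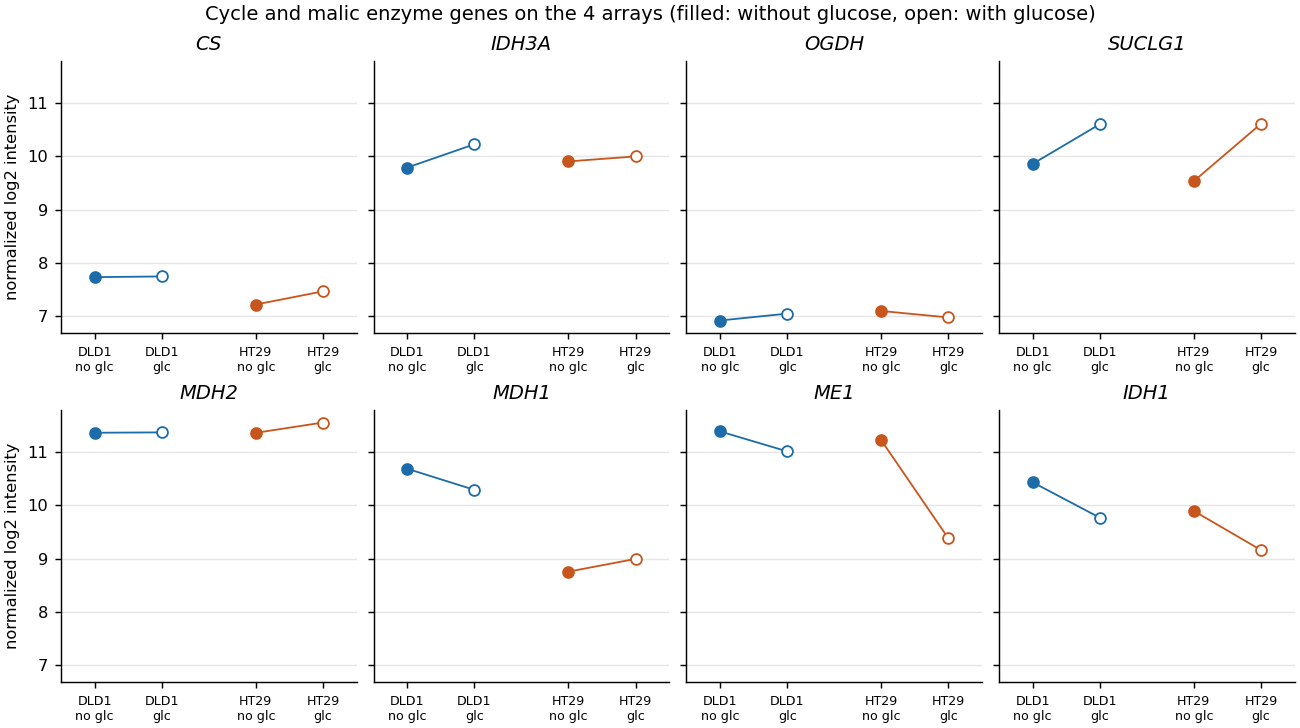
Normalized log2 intensity of the 8 measured genes, 1 panel each, on the 4 arrays; filled points are arrays without glucose, open points arrays with glucose, blue DLD1 and orange HT29, and each point is 1 array. SUCLG1 is lower and IDH1 higher without glucose in both lines, ME1 is 1.84 higher in HT29 and 0.37 higher in DLD1, and levels of different genes are not comparable.

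Of the cytosolic enzymes, ME1 was strongly higher without glucose in HT29, IDH1 was moderately higher in both lines, and MDH1 changed by less than 1.5-fold in each. ME1 encodes the NADP-dependent malic enzyme of the cytosol, which turns malate into pyruvate and makes NADPH. Its spot intensity in HT29 was 2500 without and 810 with glucose, and in DLD1 1974 without and 2062 with glucose. HT29 with glucose was thus the low array, and the other 3 lay close together. Normalized log2 values were 11.23 without and 9.38 with glucose in HT29, and 11.39 without and 11.01 with glucose in DLD1, where the spot itself was slightly dimmer without glucose.

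The ME1 change was 1.84 in HT29, or 3.58 times the level with glucose, and 0.37 in DLD1. The mean of 1.11 ± 1.04 (SD, n = 2 lines) had a limma adjusted p of 0.547. Of the 16624 genes measured, 214 had a larger change of either sign in HT29 and 2809 in DLD1. The HT29 value lay between 1.70 and 2.03 under every alternative. In DLD1 the sign depended on the processing, at -0.05 under median scaling, 0.07 in the deposited table, 0.28 with cyclic loess and -0.28 with the local background subtracted. The HT29 change exceeded the DLD1 change by 1.47, and 2.47% of all genes had a HT29 change at least 1 log2 unit above that in DLD1. This difference between lines rests on 1 array for each line and medium and could not be tested.

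IDH1 encodes the NADP-dependent isocitrate dehydrogenase of the cytosol and peroxisomes, which interconverts isocitrate and alpha-ketoglutarate. Its spot intensity was 1059 without and 884 with glucose in DLD1, and 901 without and 688 with glucose in HT29. On the normalized log2 scale it had 10.43 without and 9.77 with glucose in DLD1, and 9.90 without and 9.16 with glucose in HT29. Both arrays without glucose lay above both arrays with glucose, and the changes of 0.66 and 0.73 were nearly equal (mean 0.70 ± 0.05, SD, n = 2 lines). Limma gave an adjusted p of 0.304, the smallest among the 16624 genes, which IDH1 shared with SLC25A10 and other genes. The DLD1 change fell short of 1.5-fold with median scaling (0.27), with cyclic loess (0.57), in the deposited table (0.40) and after local background subtraction (0.37). In HT29 the change was 0.48 with median scaling and 0.77 in the deposited table. It was -0.82 after local background subtraction, and that background made up 76.3% of the IDH1 spot signal without and 29.1% with glucose. The near equality of the 2 lines thus depended on the processing.

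MDH1 encodes the cytosolic malate dehydrogenase, a part of the malate-aspartate shuttle. It had 10.69 without and 10.29 with glucose in DLD1, and 8.76 without and 9.0 with glucose in HT29. The change was 0.40 in DLD1 and -0.24 in HT29, so the signs were opposite and the media overlapped. The DLD1 value was 0.01 with median scaling and 0.13 in the deposited table.

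**Figure D2:**
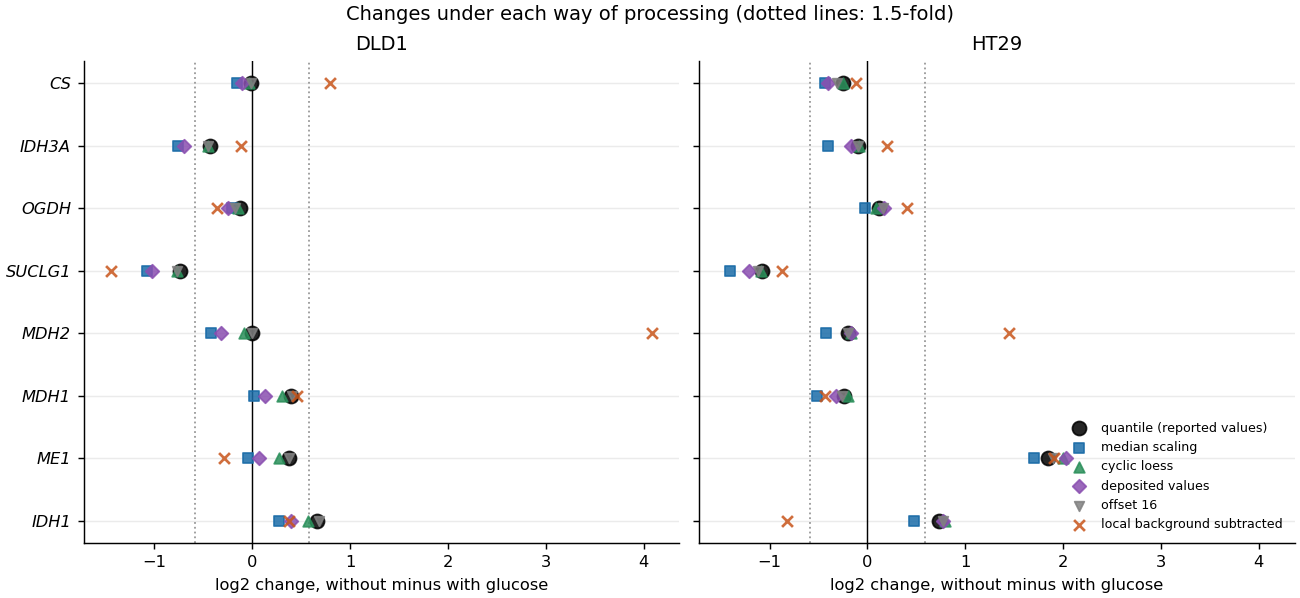
Log2 change without minus with glucose in DLD1 (left) and HT29 (right) for the 8 genes, 1 symbol for each way of processing, with dotted lines at 1.5-fold. SUCLG1 lies left of the lower line in both panels with every symbol and ME1 lies right of the upper line in HT29 with every symbol, while MDH2 with the local background subtracted stands at 4.09 and 1.44.

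SUCLG1, ME1 and IDH1 were the genes past 1.5-fold in at least 1 line, and their promoters are given here because their changes differed in direction or size. The sequences are those of RefSeq on GRCh38.p14, from 250 bases before the annotated start to 50 after it, and 7 of the 8 measured genes had an entry, OGDH being the other. Capitals mark the core of the antioxidant response element, TGACNNNGC, and the CCAAT box, each on either strand. ME1 lies on the minus strand at chr6:83431002-83431301, and SUCLG1 on the minus strand at chr2:84459231-84459530. IDH1 has 2 annotated starts on the minus strand, a downstream one at chr2:208254409-208254708 and an upstream one at chr2:208255022-208255321.
ME1: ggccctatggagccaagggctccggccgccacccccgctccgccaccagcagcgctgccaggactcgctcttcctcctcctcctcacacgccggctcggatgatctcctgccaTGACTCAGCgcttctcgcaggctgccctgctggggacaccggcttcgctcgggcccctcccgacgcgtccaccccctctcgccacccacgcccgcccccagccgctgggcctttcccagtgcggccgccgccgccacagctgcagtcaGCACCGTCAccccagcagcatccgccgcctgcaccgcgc
SUCLG1: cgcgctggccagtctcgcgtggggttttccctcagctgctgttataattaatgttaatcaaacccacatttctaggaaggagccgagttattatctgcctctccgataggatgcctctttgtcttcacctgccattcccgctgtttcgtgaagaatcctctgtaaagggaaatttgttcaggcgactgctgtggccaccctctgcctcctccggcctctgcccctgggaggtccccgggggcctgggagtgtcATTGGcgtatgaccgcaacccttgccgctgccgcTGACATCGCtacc
IDH1 downstream: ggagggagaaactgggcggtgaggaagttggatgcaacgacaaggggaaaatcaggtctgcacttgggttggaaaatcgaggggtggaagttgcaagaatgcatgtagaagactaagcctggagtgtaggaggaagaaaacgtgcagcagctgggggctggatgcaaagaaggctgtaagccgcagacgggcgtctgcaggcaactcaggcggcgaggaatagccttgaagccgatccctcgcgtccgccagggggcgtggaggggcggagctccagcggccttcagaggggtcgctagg
IDH1 upstream: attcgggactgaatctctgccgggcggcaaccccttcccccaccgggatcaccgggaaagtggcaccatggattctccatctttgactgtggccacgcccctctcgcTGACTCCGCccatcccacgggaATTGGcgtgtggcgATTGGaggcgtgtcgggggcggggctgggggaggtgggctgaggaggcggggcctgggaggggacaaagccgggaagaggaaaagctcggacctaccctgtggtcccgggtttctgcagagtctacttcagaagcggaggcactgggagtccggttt
The antioxidant response element is the site bound by NRF2, a transcription factor activated by oxidative and electrophilic stress, and ME1 is a known NRF2 target. Its promoter held 2 matches to the core, beginning at -137 (TGACTCAGC) and at 12 (GCACCGTCA, the reverse complement pattern) from the start. The upstream IDH1 promoter held 1 at -143 (TGACTCCGC), which overlaps a GC box at -138, and the SUCLG1 promoter 1 at 38 (TGACATCGC). The downstream IDH1 promoter held 0, as did the promoters of CS, IDH3A, MDH1 and MDH2. Of 35116 promoters of that length 13.3% held the core, and 34.6% held a CCAAT box, found in the SUCLG1, upstream IDH1, CS and 1 of the MDH1 promoters. The amino acid response element core TGATGNAA (3.62% of promoters) and the E-box CACGTG (7.26%) were matched in none of the members' promoters. The GC box GGGCGG was in 45.0% of promoters and in those of CS, IDH3A, ME1 and IDH1. The motifs were chosen with the expression values known, and the matches describe letters in a window, not binding.

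Of the 8 genes, 3 changed by at least 1.5-fold in at least 1 line. In DLD1, 1 gene was higher (IDH1), against 3.91% of all genes, and 1 lower (SUCLG1), against 4.33%. In HT29, 2 were higher (ME1 and IDH1), against 7.47% of all genes, and 1 lower (SUCLG1), against 8.47%. IDH1 was the gene past 1.5-fold upwards in both lines, as were 2.17% of all genes, and SUCLG1 the gene past it downwards, as were 2.44%. The median change of the 8 was -0.01 in DLD1 and -0.14 in HT29, against -0.0019 and -0.0015 over all genes. With median scaling the medians of the 8 were -0.18 and -0.41. Median scaling shifts each array by a constant and so keeps the differences between bright and dim genes. Under it the 4156 brightest genes had medians of -0.28 in DLD1 and -0.31 in HT29. In the deposited table, which held 4153 of them, the medians were -0.21 and -0.11. Quantile normalization gives all arrays the same distribution, and after it the medians were -0.03 and -0.07. Which of these is nearer the true levels was not tested. Of the 8 genes 6 belong to the brightest genes, and CS and OGDH do not.

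By sign alone, ME1 and IDH1 were higher in both lines, as were 30.6% of all genes. CS, IDH3A, SUCLG1 and MDH2 were lower in both, as were 32.2%, and OGDH and MDH1 had opposite signs, as did 37.1%. The arrays without glucose lay above those with glucose for ME1 and IDH1 (16.6% of all genes) and below them for IDH3A, SUCLG1 and MDH2 (17.3%). For MDH2 this rests on a DLD1 change of only -0.007. Of the genes whose media did not overlap, SUCLG1 alone kept its sign in both lines under every alternative processing. MDH1, whose media overlapped, also kept its opposite signs. Limma gave none of the 8 an adjusted p below 0.05 for the medium, nor any of the 16624 genes (0%). At an unadjusted p below 0.05 it had 2 of the 8, SUCLG1 and IDH1, and 13.4% of all genes. The fit has few degrees of freedom, so the lack of calls does not show that the genes were unaffected.

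**Figure D3:**
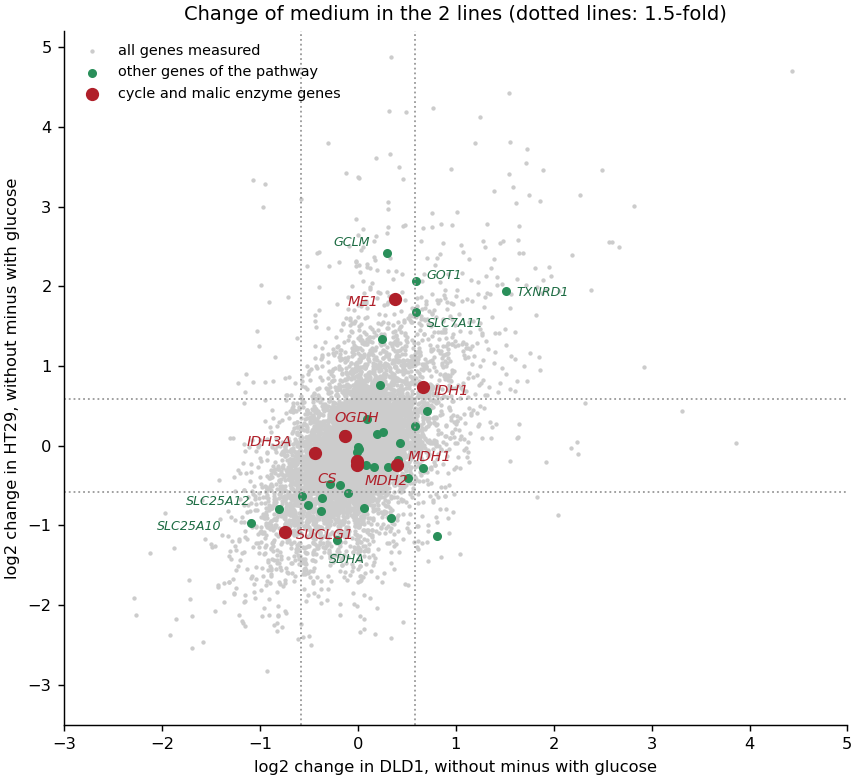
Log2 change without minus with glucose in DLD1 (x axis) and HT29 (y axis); grey points are all 16624 genes, green points other genes of the pathway and red points the 8 cycle and malic enzyme genes, with dotted lines at 1.5-fold. IDH1 lies beyond both upper lines at 0.66 and 0.73, SUCLG1 beyond both lower lines at -0.74 and -1.08, and ME1 stands at 0.37 and 1.84.

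Set against DLD1, HT29 had less MDH1 in both media and less ME1 in the medium with glucose. For MDH1 the log2 intensities of HT29 were 8.76 without and 9.0 with glucose, and those of DLD1 were 10.69 and 10.29. HT29 was lower by 1.5-fold or more in both media, as were 5.13% of all genes, with differences of -1.93 without and -1.29 with glucose (limma adjusted p = 0.166 with the medium as a block). No gene of the 8 was higher by that amount in both media, against 4.43% of all genes. Across the alternatives the MDH1 differences lay between -2.17 and -1.60 without and between -1.35 and -1.07 with glucose. For ME1 the difference was -0.16 without glucose, and -1.63 with glucose. The first took the opposite sign with median scaling (0.38), cyclic loess (0.06), the deposited table (0.52) and local background subtraction (0.19), while the second lay between -2.00 and -1.38. Without glucose the ME1 values of the lines were therefore closer than with it.

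IDH1 was lower in HT29, at -0.54 without and -0.61 with glucose. The first was -0.19 under median scaling and -0.07 in the deposited table, and the second was 0.64 after local background subtraction. HT29 without glucose (9.90) lay above DLD1 with glucose (9.77). CS differed by -0.51 and -0.28, and its lines did not overlap, although the second value was 0.11 after local background subtraction. The lines did not overlap, with HT29 lower, for 2 of the 8 genes (CS and MDH1) and for 24.4% of all genes, and with HT29 higher for 0 of the 8 and for 26.2%. For IDH3A, OGDH, SUCLG1 and MDH2 the lines overlapped. The differences without and with glucose were 0.12 and -0.23 for IDH3A, the first of which was 0.59 in the deposited table and the second 0.07 under median scaling. For OGDH they were 0.18 and -0.07. For SUCLG1 they were -0.32 and 0.01, or 0.12 and 0.31 in the deposited table, and the second was -0.68 after local background subtraction. The MDH2 differences of -0.002 and 0.18 depended on the processing, at 0.54 and 0.54 under median scaling, 0.68 and 0.54 in the deposited table and -1.50 and 1.15 after local background subtraction. Limma gave no gene of the 8, and 0% of all genes, an adjusted p below 0.05 for the line, and the smallest adjusted p among the 8 was 0.142, for IDH1. At an unadjusted p below 0.05 it had CS, MDH1 and IDH1, and 21.0% of all genes.

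**Figure D4:**
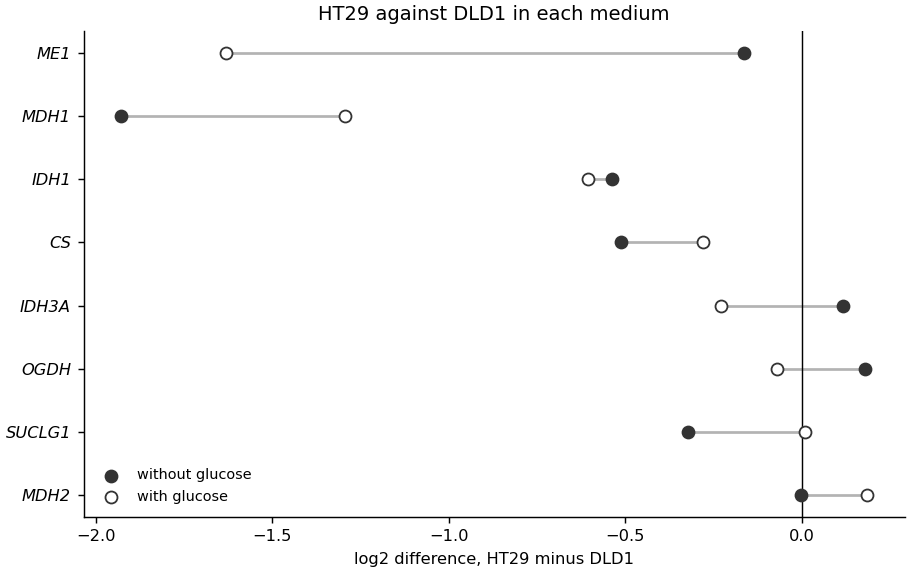
Log2 difference HT29 minus DLD1 for the 8 genes, filled points without and open points with glucose, each point from 1 array of each line. MDH1 lies at -1.93 without and -1.29 with glucose, and ME1 at -0.16 without and -1.63 with glucose.

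The other genes around the cycle were read from 6 lists holding 40 genes, of which 36 were measured. Beside the counts that follow, the shares of all genes past 1.5-fold were 3.91% higher and 4.33% lower in DLD1, and 7.47% higher and 8.47% lower in HT29. Of the 12 measured remaining enzymes of the cycle, 1 was at least 1.5-fold higher and 0 lower in DLD1, and 0 higher and 3 lower in HT29, with medians of 0.03 and -0.26. The lowest by the mean of the lines was SDHA, the flavoprotein subunit of succinate dehydrogenase, at -0.22 in DLD1 and -1.18 in HT29, the first of which was 0.26 after local background subtraction. SUCLA2 and SUCLG2 encode the alternative beta subunits that pair with the SUCLG1 product. They were at 0.06 and 0.67 in DLD1 and at -0.78 and -0.28 in HT29. In DLD1 neither was lower on the normalized scale, but the SUCLA2 spot was dimmer without glucose (476) than with it (576). Whether the sign of SUCLA2 in DLD1 holds under other processing is not shown here. IDH2, the mitochondrial NADP-dependent counterpart of IDH1, was at -0.29 and -0.48. The mitochondrial malic enzyme genes ME2 (0.09 and 0.34) and ME3 (0.17 and -0.26) changed by less than 1.5-fold in both lines.

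Of 7 genes of the malate-aspartate shuttle and carriers of cycle intermediates, 2 were at least 1.5-fold lower in DLD1 and 5 in HT29, against 4.33% and 8.47% of all genes. In each line 1 was higher, against 3.91% and 7.47%, with list medians of -0.51 and -0.74. GOT1, the cytosolic aspartate aminotransferase gene, was the higher one, at 0.59 in DLD1 and 2.07 in HT29. Its DLD1 change fell short of 1.5-fold with median scaling (0.24), with cyclic loess (0.53) and in the deposited table (0.37). GOT2, its mitochondrial counterpart, was at -0.51 and -0.74. SLC25A10, the dicarboxylate carrier gene, was at -1.10 and -0.97, and SLC25A12, an aspartate-glutamate carrier gene, at -0.80 and -0.79, or -2.41 and -3.05 with the deposited values. The SLC25A12 spot was dim, at 44.9 without and 92.8 with glucose in DLD1, and 40.6 without and 91.0 with glucose in HT29. Without glucose it was near the blanks, so the size of its change is poorly determined. With the local background subtracted, SLC25A10 was at -0.70 and -0.51 and SLC25A12 at -0.57 and -0.24. Of the cytosolic citrate enzymes, ACLY, ATP citrate lyase, was at -0.37 and -0.66, and ACO1, cytosolic aconitase, at 0.20 and 0.15.

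Among 5 measured enzymes that feed the cycle, medians were 0.01 in DLD1 and -0.41 in HT29. PDHB, the beta subunit of the pyruvate dehydrogenase E1 component, was at 0.81 in DLD1 and at -1.14 in HT29. Of 8 NADPH and antioxidant genes, 3 were at least 1.5-fold higher in DLD1 and 5 in HT29, against 3.91% and 7.47% of all genes. None was lower by that amount, against 4.33% and 8.47%, and the medians were 0.36 and 1.05. TXNRD1, thioredoxin reductase, was at 1.51 and 1.94, or 5.45 and 5.56 after local background subtraction. SLC7A11, the cystine transporter gene, was at 0.60 and 1.67, and GCLM, the modifier subunit of the glutathione synthesis enzyme, at 0.30 and 2.42. With median scaling the DLD1 changes of SLC7A11 and GCLM were 0.47 and -0.01. PGD, the NADPH-making phosphogluconate dehydrogenase gene, was at 0.22 and 0.76. TALDO1 was at -0.14 and 0.11, and TKT at 0.43 and 0.03. NQO1 was at 0.70 and 0.44, and SRXN1, the remaining gene of this list, at 0.24 and 1.33. Limma gave none of the 36 an adjusted p below 0.05. Over the 36, 6 genes were at least 1.5-fold higher and 2 lower in DLD1, against 3.91% and 4.33% of all genes. In HT29, 6 were higher and 11 lower, against 7.47% and 8.47%. The medians were 0.13 and -0.21.

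**Figure D5:**
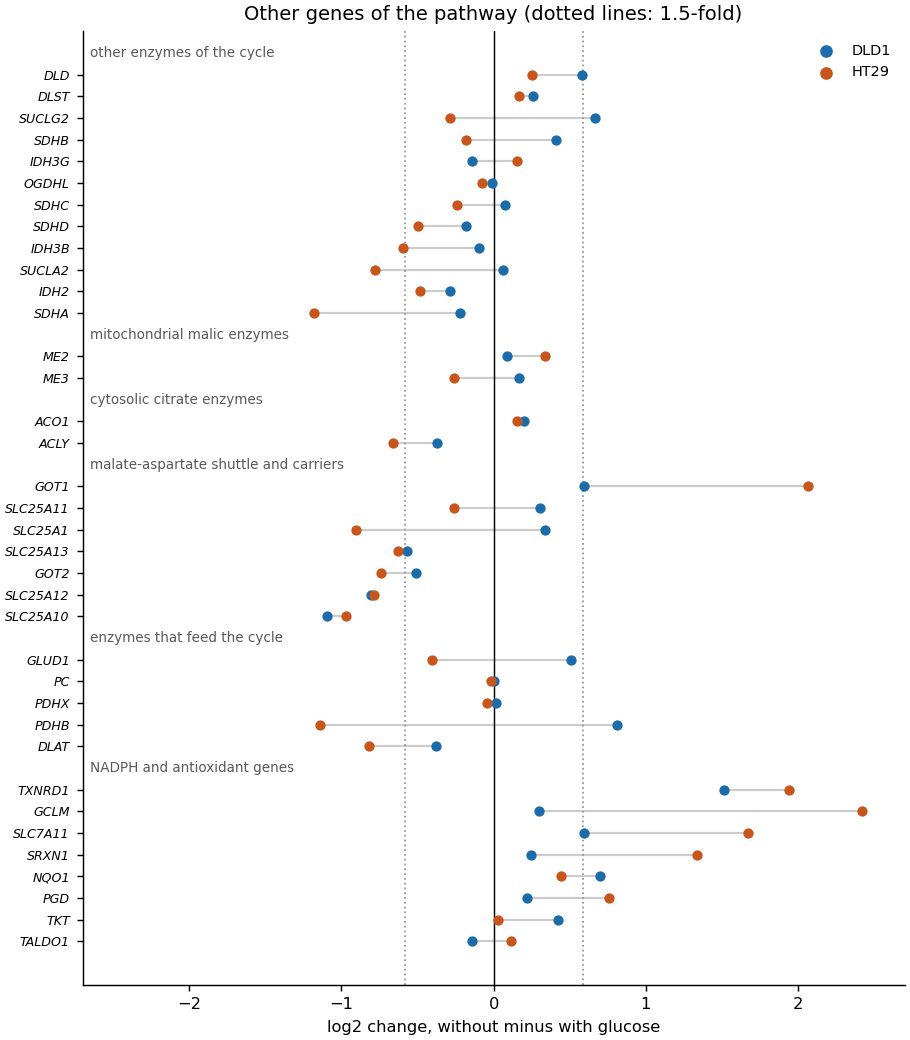
Log2 change without minus with glucose of 36 other genes of the pathway, grouped by list; blue points are DLD1, orange points HT29, each from 2 arrays, and dotted lines mark 1.5-fold. In the shuttle and carrier list GOT1 stands to the right at 0.59 and 2.07 while SLC25A10 and SLC25A12 stand to the left in both lines.

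The genes whose values over the 4 arrays most resembled those of ME1 and SUCLG1 were found by the Euclidean distance between log2 values centred on each gene's mean. Nearest to ME1 were TAX1BP1 (distance 0.15), CDC42EP3 (0.19), SLC20A1 (0.34), SLC1A4 (0.34) and TMEM263 (0.36). TAX1BP1, an autophagy receptor gene, was at 0.22 in DLD1 and 1.91 in HT29, and SLC1A4, a neutral amino acid transporter gene, at 0.76 and 1.67. Nearest to SUCLG1 were GINS1, MAT2A, ITGAE, DYNLT2B and SPA17, at distances of 0.053 to 0.095. GINS1, a replication helicase subunit gene, was at -0.67 and -1.07, and MAT2A, which makes S-adenosylmethionine, at -0.80 and -1.04. These likenesses rest on 4 arrays.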

How the data were processed

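RNA of the 4 cultures was hybridised to 4 arrays in a single colour, and groups were taken from the sample titles. Per the file headers, the deposited scanner files hold the median intensity at 635 nm of each spot and of its surroundings, joined from 3 scanner gains. A table deposited by the authors gives linear intensity values, with dim spots left empty. Each of its columns follows that array's spot medians in a straight line (r above 0.999) and has a median of 25.0, and no source states its method. Normexp correction (offset 50) and quantile normalization of the spot medians used limma 3.58.1 (R 4.3.3). The offset shrinks changes of dim genes. Probes above the 95th percentile of the blank spots on at least 1 array were averaged by gene, which left 16624 genes. Symbols came from the platform annotation, older ones updated through RefSeq synonyms. Limma fitted line and medium together over all genes, with Benjamini-Hochberg adjustment at 0.05. It has 1 array in each cell of the design, so p-values reflect how far the 2 lines differ in their change, which may be technical. The arrays are paired by line. Within a line, 1.5-fold counted as a change, with no test. The limma fit was also run on data simulated from its own model, which cannot show whether that model suits these arrays. Alternatives were local background subtraction, offset 16, median scaling, cyclic loess, the deposited values, other probe filters, the brightest probe, a 2-fold limit and no block. The members, lists and motifs were chosen with earlier results of these data known. All members are named. Of the other lists, genes past 1.5-fold one way in both lines and the 3 highest and lowest by mean were named by rule, and others as examples chosen after their values were seen.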

Additional observations from a re-analysis of the deposited data

Results flagged for a closer look

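MDH1 and OGDH changed in opposite directions in the 2 lines, which was not tested. For MDH1 the change was -0.24 in HT29 and 0.40 in DLD1, a difference of -0.63. For OGDH it was 0.12 in HT29 and -0.13 in DLD1, a difference of 0.25. All of these changes were smaller than 1.5-fold. Under median scaling MDH1 was at 0.01 in DLD1 and OGDH at -0.02 in HT29. Over all 16624 genes, 37.1% had opposite signs in the lines.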

How the results depend on the processing

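SUCLG1 in both lines and ME1 in HT29 kept their direction and stayed past 1.5-fold under the 8 alternatives, of which the 2 probe filters and, for ME1, the choice of probe leave the value as it is by construction. The other counts of members depended on the processing. The number at least 1.5-fold higher in DLD1, 1 as reported, was 2 with the local background subtracted and 0 with median scaling, cyclic loess, the deposited values or a 2-fold limit. The number lower in DLD1, 1 as reported, was 2 under median scaling, 2 in the deposited table and 0 at 2-fold. In HT29 the number higher, 2 as reported, was 1 with median scaling and at 2-fold, and the number lower, 1 as reported, was 2 with the local background subtracted. The DLD1 median of the members was 0.13 with the local background subtracted, -0.18 under median scaling and -0.17 in the deposited table, and the HT29 median was 0.041 and -0.41 with the first and second of these. IDH1 in HT29 turned to -0.82 with the local background subtracted. The cause was not tested. Limma called 0 genes for the medium under each alternative, including no replicate block (1252 to 2733 genes at an unadjusted p below 0.05), and the smallest adjusted p of a member ranged from 0.196 to 0.486. For the line it called 740 genes with the deposited values and 48 with no replicate block, none of them a member (smallest adjusted p of a member 0.071). Leaving out a line gives the other line's change, with no test. The number of arrays and, for OGDH and CS, the nearness to background limit the precision.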
